A study of Arabidopsis thaliana with 6 samples.

Results

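The genes encoded by the chloroplast genome were examined in Arabidopsis thaliana pollen that carries a mutant allele of the nuclear poly(A) polymerase gene PAPS1. Members are all genes whose identifier starts with ATCG, the prefix of chloroplast genes, which gave 133 of the 33602 genes counted. The tested libraries came from paps1-3 pollen, labelled A, B and C, and the libraries they are set against came from wild-type pollen, also labelled A, B and C. Every library is of the Col accession, and the plants that gave the pollen carried paps1-3 on 1 chromosome and PAPS1 with pLat52::RFP, a red fluorescence reporter under the LAT52 promoter active in pollen, on the other. Grains were parted by flow sorting on that fluorescence, so the mother plants of the wild-type grains carried the mutant allele too. Dark grains should then be the mutant ones, although no label spells it out. Not given in the sources used here are the age of the plants and the gates and purity of the sort. Nothing says that the letters stand for separate plants or sorts, so p-values reflect how far these libraries scatter, and that scatter may be technical.

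Plastids keep a small genome of bacterial origin, which encodes subunits of the photosystems, the cytochrome b6f complex, the ATP synthase, the NDH complex and Rubisco, along with ribosomal proteins, subunits of an RNA polymerase, ribosomal RNAs and transfer RNAs. Most other plastid proteins are made from nuclear genes, among them the sigma factors and associated proteins that the plastid-encoded polymerase needs, and a phage-type polymerase that works beside it. Plastids of pollen are not green, and in Arabidopsis they are passed on through the egg. Poly(A) tails are added to messenger RNAs of the nucleus by enzymes such as PAPS1, whereas in plastids added A-rich tails mark RNA for degradation.

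The RefSeq annotation of assembly TAIR10.1 lists 129 loci on the chloroplast, of which 85 code for proteins, 37 are transfer RNA genes and 7 are ribosomal RNA genes, but it does not use the ATCG identifiers. Notes of nuclear genes in that annotation attach a product name to 6 members. These are ATCG00430 (photosystem II reaction center protein G), ATCG00530 (a CemA-like proton extrusion protein), ATCG00660 (ribosomal protein L20 of the large subunit), ATCG00670 (the plastid-encoded ClpP, the proteolytic subunit of the Clp protease), ATCG00750 (ribosomal protein S11 of the small subunit) and ATCG01310 (ribosomal protein L2). The product names are used as the notes give them and could not be checked against the chloroplast loci. For ATCG00430 in particular, a role in photosystem II rests on the wording of the notes alone. All other members are given by identifier, and no role is assigned to them.

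Library depth lay between 19861313 and 41176647 gene counts in paps1-3 and between 31909683 and 37685541 in wild type. PAPS1 (AT1G17980) itself drew 18, 9 and 3 reads in the paps1-3 libraries, against 32, 25 and 20 in wild type. On the TMM scale described below, edgeR put its log2 fold change at -2.61 ± 0.57 (SE, adjusted p = 0.000273). PAPS1 passed the filter on low counts in the wild-type libraries taken alone and not in the paps1-3 libraries taken alone. Its direction was thus set in large part by the filter, and the value is a description. The scaling between genotypes matters for all values here. TMM, which assumes that most genes do not change, gave paps1-3 libraries factors of 1.47 to 1.68 and wild-type libraries factors of 0.613 to 0.673, and the median log2 fold change of all 14273 genes tested was 0.37 with TMM and 1.62 by library totals. Each value is therefore given on a named scale. Library paps1-3 A had the most genes detected, 30343, against 27453 and 24587 in paps1-3 B and C and 16869 to 19668 in wild type. These numbers were not corrected for depth. Results that rest on paps1-3 A are given with and without it.

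Chloroplast transcripts as a whole made up a larger share of the RNA in paps1-3 pollen. The members drew 7863, 5913 and 2829 counts in paps1-3 (A, then B, then C), against 966, 702 and 1154 counts in the wild-type libraries. By library totals that was 214, 144 and 142 CPM in paps1-3, against 30.3, 21.4 and 30.6 in wild type (CPM, the count after scaling every library to the same total). The groups did not overlap, and paps1-3 A was the highest. The means were 167 ± 41.1 in paps1-3 and 27.4 ± 5.21 in wild type (SD, n = 3 each), a ratio of 6.08 (exact two-sided permutation p = 0.1, the smallest that 3 against 3 allows). Without paps1-3 A the difference in means was 116 CPM, against 139 with all libraries.

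On the TMM-scaled library size the members summed to 127.7, 97.0 and 96.8 CPM in paps1-3, against 45.6, 31.8 and 49.95 in wild type. The groups again did not overlap, but the ratio of the means was 2.52 (107 ± 17.8 in paps1-3 and 42.5 ± 9.46 in wild type, exact p = 0.1). Beside mitochondrial RNA, chloroplast RNA was the smaller in every library and most so in paps1-3. By library totals the mitochondrion-encoded genes had 25734, 30144 and 42197 CPM in paps1-3, against 523, 353 and 340 in wild type. Their ratio of means was 80.6 (exact permutation p = 0.1), beside 6.08 for the chloroplast genes on that scale. For each 100 mitochondrial counts there were 0.833, 0.476 and 0.338 chloroplast counts in paps1-3, against 5.79, 6.07 and 9.0 in wild type (0.549 ± 0.255 in paps1-3 and 6.95 ± 1.78 in wild type, exact p = 0.1). The 2 organelles thus differed in size of change by more than the spread between libraries. In bulk RNA, fewer cells or organelles of a kind and less RNA in each cannot be told apart.

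**Figure D1:**
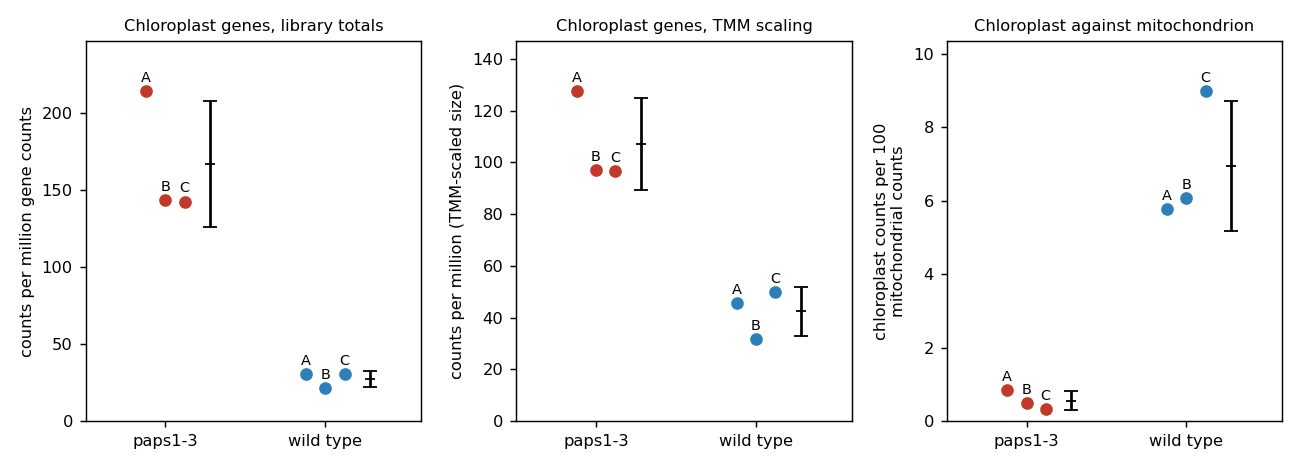
Summed chloroplast counts in each library (dots, lettered A to C) with the mean ± SD of 3 libraries (bars), as CPM by library totals, as CPM on the TMM-scaled library size, and per 100 mitochondrial counts. The 3 paps1-3 libraries lie between 142 and 214 CPM, above the wild-type libraries at 21.4 to 30.6, while the ratio to mitochondrial counts spans 0.338 to 0.833 in paps1-3, against 5.79 to 9.0 in wild type.

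More members were detected in paps1-3. At least 1 count was found for 97, 89 and 83 members in the paps1-3 libraries, against 48, 43 and 65 in the wild-type libraries. At the depth of the smallest library the expected numbers were 91.5, 82.9 and 83 in paps1-3, against 40.5, 36.4 and 56.5 in wild type (85.8 ± 4.95 in paps1-3 and 44.4 ± 10.6 in wild type, exact p = 0.1). The groups did not overlap at equal depth. A count in all 3 libraries was seen for 76 members in paps1-3 and for 33 in wild type. Detection was wider over all genes too, with 30343, 27453 and 24587 detected in paps1-3, against 19668, 16869 and 18324 in wild type. For all genes no number at equal depth was computed, so how far the members differ from them was not tested.

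No library had a count for 32 members. Of these, 15 fall among the 19 members numbered ATCG00830 to ATCG01000, 16 among the 18 numbered ATCG01140 to ATCG01310, and 1, ATCG00110, elsewhere. The RefSeq chloroplast has 6 protein symbols at 2 places, 5 of them (ndhB, rpl2, rpl23, rps7 and ycf2) with identical copies. Reads that align at several places went to a category of their own and to no gene. The gene for ribosomal protein L2, ATCG01310, had 0 counts in all 6 libraries, which here says nothing about its level, and the same limit holds for any other member with a near-identical copy.

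A further 57 members had counts but stayed under the filter on low counts. Their counts summed to 925 in the 3 paps1-3 libraries, against 95 in the 3 wild-type libraries. Among them 28 had 0 counts in every wild-type library and 0 members had 0 counts in every paps1-3 library. A count of 0 in the wild-type libraries allows a level of up to 0.0884 CPM, taking 3 counts per library, a limit that covers counting error only. ATCG00430, photosystem II reaction center protein G in the notes, belonged here with 26, 5 and 4 counts in paps1-3, against 0, 0 and 4 in wild type. Most of its counts lay in paps1-3 A, and it was not tested.

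The remaining 44 members were tested. All of them passed the filter in the paps1-3 libraries taken alone, and 5 passed it in the wild-type libraries taken alone. The other 39 entered the test through paps1-3 only, so their direction was set in large part by the filter, and their calls are a description. With TMM scaling 36 of the 44 were called higher in paps1-3 and 0 lower at an adjusted p under 0.05 (edgeR), where 42.3% of all genes tested were called higher and 29.9% lower. At an unadjusted p under 0.05 edgeR gave 38 higher and 0 lower. The share of all genes at an unadjusted threshold was not computed, here or for the nuclear lists below. DESeq2 called 33 higher and 0 lower, where it called 5688 of all 14273 genes higher and 4264 lower. By library totals edgeR called 44 of 44 higher and 0 lower, also at an unadjusted p, where 70.2% of all genes tested were called higher and 9.72% lower. Without paps1-3 A, 32 of 42 members tested were called higher with TMM scaling, where 5651 of all 14029 genes tested were. The highest level of the 6 libraries lay in paps1-3 A for 37 of the 44, in B for 3 and in C for 4, by library totals.

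**Figure D2:**
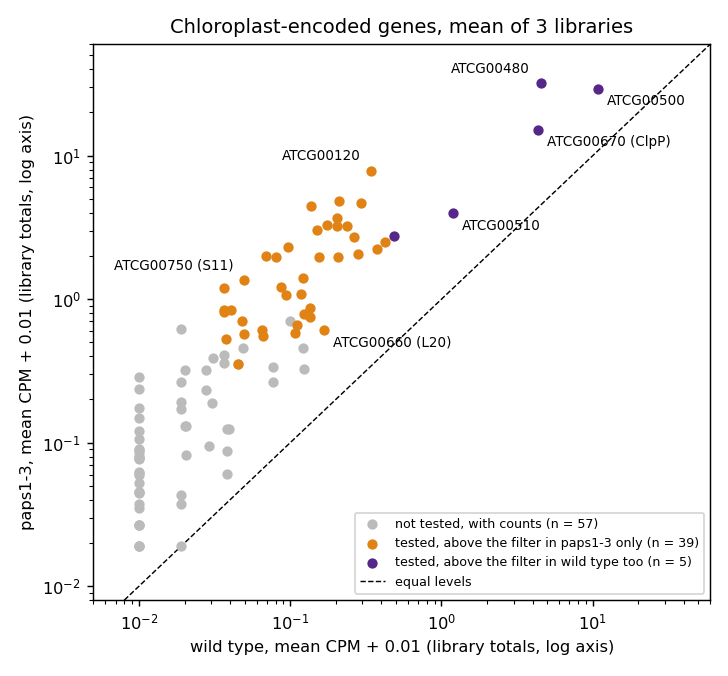
Mean level of each chloroplast gene in paps1-3 (vertical) against wild type (horizontal), in CPM by library totals with a small constant added, on log axes, each point the mean of 3 libraries. All points lie on the paps1-3 side of the dashed line of equal levels; colours part the 5 members above the filter in wild type too, the 39 above it in paps1-3 only and the 57 with counts that were not tested.

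The 5 members that were above the filter in both genotypes give the comparison that the filter does not fix. They are ATCG00500, ATCG00480, ATCG00670 (ClpP), ATCG00510 and ATCG00040. Together they had 93.0, 75.4 and 80.1 CPM in paps1-3, against 24.5, 17.6 and 21.9 in wild type. The groups did not overlap and the ratio of the means was 3.88 (82.9 ± 9.12 in paps1-3 and 21.3 ± 3.5 in wild type, exact p = 0.1). The other 128 members together had 121, 68.2 and 62.3 CPM in paps1-3, against 5.77, 3.85 and 8.73 in wild type. They are low in wild type by the way the members were parted, so the size of that gap is a description and was not tested.

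ATCG00500 had the most counts of any member, with 1346, 1080 and 490 in paps1-3, against 447, 260 and 394 in wild type. By library totals its level was 36.7, 26.2 and 24.7 CPM in paps1-3, against 14.0, 7.94 and 10.5 in wild type, and the groups did not overlap. On that scale edgeR called it higher (log2 fold change 1.44, adjusted p = 1.30e-05). With TMM scaling the groups overlapped, at 18.8 ± 2.71 CPM in paps1-3 and 16.7 ± 4.68 in wild type, and edgeR gave a log2 fold change of 0.18 ± 0.18 (SE; adjusted p = 0.375). It was the smallest change of the 44 tested on either scale, and its sign with TMM turned without wild-type B (-0.09).

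ATCG00480 had 1194, 1243 and 651 counts in paps1-3, against 151, 132 and 180 in wild type. Its level by library totals was even within each group, at 32.5, 30.2 and 32.8 CPM in paps1-3, against 4.73, 4.03 and 4.78 in wild type. It was called higher on both scales, by a log2 fold change of 1.57 ± 0.16 with TMM (edgeR adjusted p = 5.52e-09) and of 2.82 by library totals (edgeR adjusted p = 2.43e-11). In paps1-3 B and C its counts were above those of ATCG00500, while in all 3 wild-type libraries and in paps1-3 A they were below them.

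ATCG00670 encodes ClpP, the catalytic subunit of a stromal protease that is essential in tobacco. It had 565, 560 and 325 counts in paps1-3, against 145, 140 and 161 in wild type. By library totals that was 15.4, 13.6 and 16.4 CPM in paps1-3, against 4.54, 4.27 and 4.27 in wild type, with no overlap and little spread in either group. The log2 fold change was 1.79 by library totals (edgeR adjusted p = 2.49e-08) and 0.54 ± 0.17 with TMM (adjusted p = 0.00643 by edgeR). The TMM call was lost without paps1-3 C (0.38, adjusted p = 0.0782), without wild-type B (0.44, adjusted p = 0.0768) and with no filter on low counts (0.46, adjusted p = 0.0700).

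The other 2 of the 5 had fewer counts. ATCG00510 had 183, 134 and 72 counts in paps1-3, against 28, 31 and 64 in wild type. Its groups overlapped with TMM scaling, where the log2 fold change was 0.47 ± 0.30 (edgeR adjusted p = 0.163), and did not overlap by library totals (1.74, edgeR adjusted p = 8.51e-05). The TMM test passed without wild-type C, the library with most counts in its group (0.84, adjusted p = 0.0297 by edgeR). ATCG00040 had 126, 89 and 53 counts in paps1-3, against 11, 13 and 26 in wild type, and was called higher on both scales (1.24 ± 0.37 with TMM, adjusted p = 0.00463 by edgeR; 2.51 by library totals).

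Members that passed the filter through paps1-3 only had means of 0.343 to 7.80 CPM by library totals in paps1-3 and of 0.0265 to 0.410 in wild type. The most counts fell on ATCG00120, with 388, 253 and 133 counts in paps1-3, against 8, 9 and 18 in wild type. Each paps1-3 library held many times the counts of any wild-type library, at a log2 fold change of 3.24 ± 0.32 with TMM. Since the filter favoured members high in paps1-3, this value is a description. ATCG01130 followed with 245, 198 and 57 counts in paps1-3, against 2, 2 and 18 in wild type, and ATCG00340 with 242, 155 and 74 in paps1-3, against 18, 6 and 4 in wild type. For ATCG01130 most of the wild-type counts lay in library C, and for ATCG00340 in library A. These and the other members named by identifier only in the rest of the text were picked after their values were seen.

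Both ribosomal protein genes that could be named and tested were low in wild type, yet they differed in size of change. ATCG00750, for protein S11 of the small ribosomal subunit, had 67, 48 and 21 counts in paps1-3, against 1, 2 and 1 in wild type. Its log2 fold change was 3.78 ± 0.71 with TMM and 4.99 by library totals. ATCG00660, for protein L20 of the large subunit, had 38, 13 and 9 counts in paps1-3, against 7, 3 and 6 in wild type, and its groups overlapped on the TMM scale. Its log2 fold change was 0.66 ± 0.63 with TMM (edgeR adjusted p = 0.355) and 1.93 by library totals (edgeR adjusted p = 0.0119); the difference between the 2 genes was not tested. ATCG00530, named after CemA, an envelope protein tied to proton export, had 46, 14 and 10 counts in paps1-3, against 0, 2 and 2 in wild type. With TMM its log2 fold change was 2.82 ± 0.82, and its call was lost without wild-type A (2.21, edgeR adjusted p = 0.0525). S11, L20 and CemA all passed the filter through paps1-3 only, so these values are a description.

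Fold changes with TMM scaling spanned 0.18 for ATCG00500 to 3.96 ± 0.90 for ATCG00160 on the log2 scale, with standard errors of 0.16 to 0.90. ATCG00160 had 84, 25 and 13 counts in paps1-3, against 0, 0 and 3 in wild type, so that its fold change rests on few wild-type counts. ATCG00740 had 84, 102 and 23 in paps1-3, against 4, 0 and 2 in wild type (3.78 ± 0.66). ATCG00180 had 222, 151 and 72 in paps1-3, against 2, 0 and 12 in wild type (3.75 ± 0.55). In each of the 3 genes the groups did not overlap. All 3 passed the filter through paps1-3 only, so these values are a description.

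With TMM scaling 8 members missed the threshold, with log2 fold changes of 0.18 to 1.83. Beside ATCG00500, ATCG00510 and ATCG00660 they were ATCG00140, ATCG00580, ATCG01050, ATCG01110 and ATCG01180. Of the 8, 3 had groups that did not overlap, and the share of all genes tested with such groups was not computed. ATCG01110, with 16, 12 and 6 counts in paps1-3 and 0, 0 and 4 in wild type, lay closest to the threshold (1.83 ± 0.86, adjusted p = 0.0580 by edgeR).

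**Figure D3:**
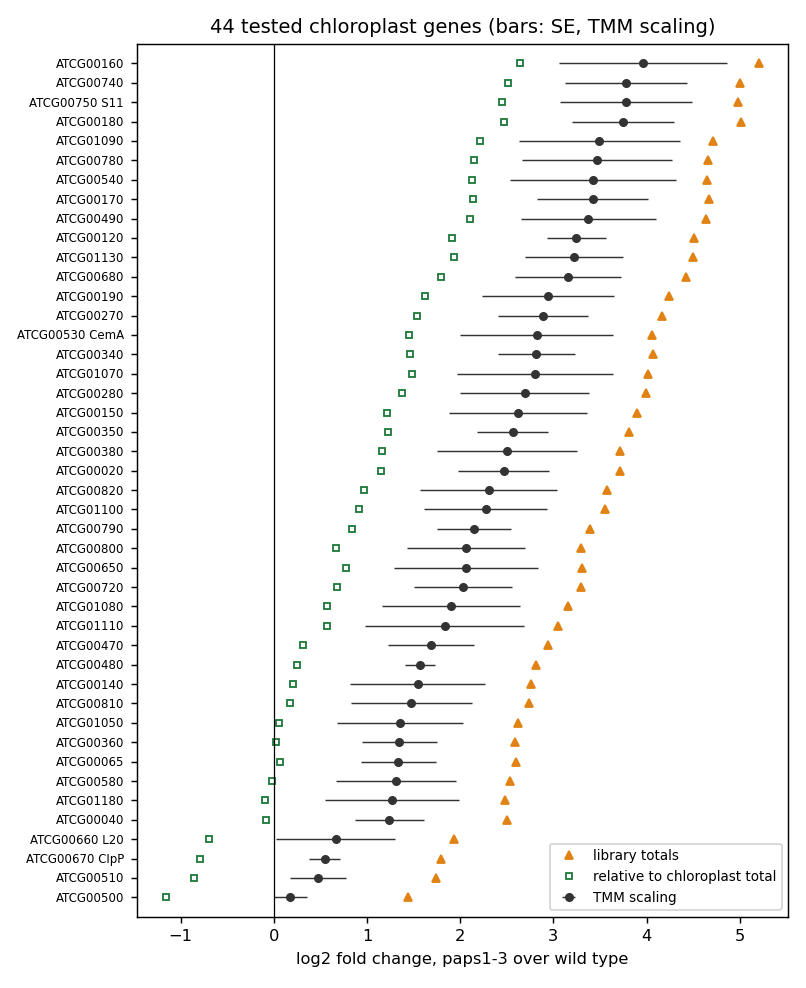
Log2 fold change, paps1-3 over wild type, of the 44 tested chloroplast genes with TMM scaling (dots, bars are SE), by library totals (triangles) and relative to the chloroplast total of each library (open squares). Every dot and triangle is above 0, from 0.18 and 1.44 at ATCG00500, while the open squares fall on both sides of 0.

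The make-up of chloroplast RNA also differed between genotypes, a comparison that does not depend on how nuclear genes are scaled. Shares here are shares of counts, which follow gene length as well as abundance. ATCG00500 took 17.1%, 18.3% and 17.3% of the chloroplast counts in paps1-3, against 46.3%, 37.0% and 34.1% in wild type. Every paps1-3 library was below every wild-type library (17.6% ± 0.612 in paps1-3 and 39.2% ± 6.34 in wild type, exact p = 0.1, 0.133 after Benjamini-Hochberg adjustment over 4 shares). ClpP took 7.19%, 9.47% and 11.5% in paps1-3, against 15.0%, 19.9% and 14.0% in wild type (exact p = 0.1, adjusted 0.133).

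ATCG00480 took a like share in both genotypes, with overlapping values of 15.2%, 21.0% and 23.0% in paps1-3, against 15.6%, 18.8% and 15.6% in wild type (exact p = 0.4, adjusted 0.4). All other members together took 60.5%, 51.2% and 48.2% in paps1-3, against 23.1%, 24.2% and 36.3% in wild type (53.3% ± 6.42 in paps1-3 and 27.9% ± 7.33 in wild type, exact p = 0.1, adjusted 0.133). No share could reach an exact p under 0.1 with 3 libraries a group. The 3 leading members thus held 46.7% ± 6.42 of the chloroplast counts in paps1-3 and 72.1% ± 7.33 in wild type.

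**Figure D4:**
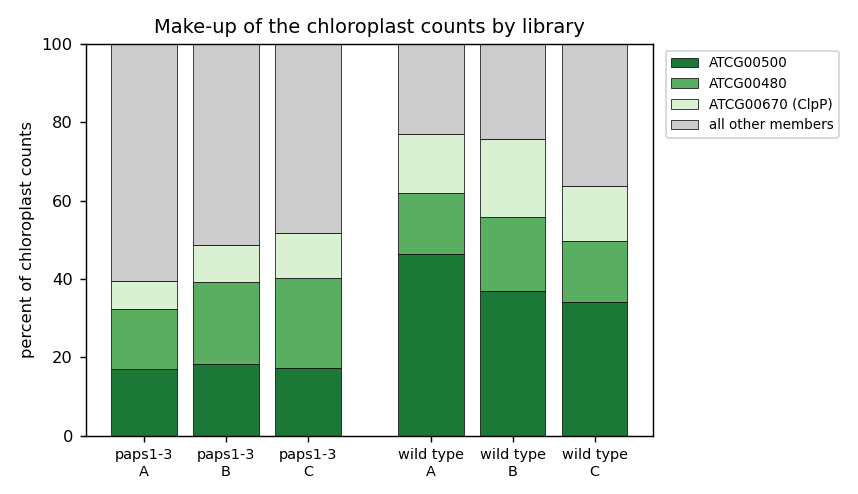
Percent of the chloroplast counts of each library taken by ATCG00500, ATCG00480, ATCG00670 (ClpP) and all other members, stacked to the whole. The other members hold 48.2% to 60.5% in the paps1-3 libraries, against 23.1% to 36.3% in the wild-type libraries, and ATCG00500 holds 17.1% to 18.3% in paps1-3, against 34.1% to 46.3% in wild type.

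Gene by gene, each library was then scaled to its own chloroplast total, so that a positive value means that a member gained more than chloroplast RNA as a whole. On this scale 17 of the 44 were called higher in paps1-3 and 3 lower by edgeR, where 18% of all genes tested were called higher and 51.6% lower. The 3 below were ATCG00500 (-1.16 ± 0.32, adjusted p = 0.000549), ATCG00510 (-0.86 ± 0.38, adjusted p = 0.0354) and ClpP (-0.80 ± 0.33, adjusted p = 0.0230), all among the 5 that were well detected in wild type. The other 2 of the 5 did not pass, with 0.24 for ATCG00480 (adjusted p = 0.499 by edgeR) and -0.09 for ATCG00040 (adjusted p = 0.871 by edgeR).

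The 17 above had log2 fold changes of 1.22 to 2.64 relative to the chloroplast total. All of them passed the filter through paps1-3 only, so the filter favoured this direction and their calls are a description. On this scale a lower share of a leading member also raises the other members. S11 was among the 17 (2.45 ± 0.83), as were ATCG00120 (1.91 ± 0.42) and ATCG00180 (2.47 ± 0.52). CemA (1.45 ± 0.86, adjusted p = 0.120 by edgeR) and L20 (-0.70 ± 0.67, adjusted p = 0.347 by edgeR) did not pass. Without paps1-3 A, a check added after the data were seen, 12 of 42 were called above and 1 below. Of all 14029 genes tested there, 2375 were called above and 6991 below. The member still called below was ATCG00500 (-1.14, adjusted p = 0.00136 by edgeR), while ClpP had -0.63 (adjusted p = 0.0910 by edgeR) and ATCG00510 -0.84 (adjusted p = 0.0595 by edgeR).

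In nuclear genes for the same complexes the filter on low counts set part of the calls, as it did for the chloroplast genes. Of 39 listed nuclear genes for photosystem subunits and light-harvesting proteins, 9 were tested, of which 3 were called higher and 5 lower with TMM scaling and 4 higher and 3 lower by library totals (edgeR), where 42.3% and 29.9% of all genes were called higher and lower with TMM and 70.2% and 9.72% by library totals. The 4 that were above the filter in each genotype taken alone, PSAD2, PSAH1, PSAH2 and PSBX, were all called lower with TMM, and 2 of them, PSAH2 and PSBX, by library totals. LHCB3 entered through wild type only, and LHCA4, PSBO1, PSBR and PSBW through paps1-3 only, so the direction of those 5 was set in large part by the filter. The median log2 fold change of the 9 was -1.46 with TMM and -0.22 by library totals. PSAH2, a subunit of photosystem I, had 147, 130 and 48 counts in paps1-3, against 301, 298 and 332 in wild type, and was lower on both scales (-2.75 ± 0.19 with TMM, adjusted p = 3.83e-12 by edgeR; -1.49 by library totals). PSBX, a small subunit of photosystem II, had 14, 20 and 12 counts in paps1-3, against 43, 72 and 59 in wild type (-3.06 ± 0.38 with TMM, -1.81 by library totals). PSAD2, the ferredoxin-docking subunit of photosystem I, was lower with TMM (-2.14 ± 0.39) and missed the threshold by library totals (-0.89, adjusted p = 0.0688 by edgeR).

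Among those that entered through paps1-3 only, PSBO1, of the oxygen-evolving complex, had 23, 38 and 19 counts in paps1-3, against 0, 0 and 2 in wild type. PSBR, also of photosystem II, had 28, 27 and 8 in paps1-3, against 1, 0 and 0 in wild type. These values are a description. 

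Of 18 nuclear genes for photosynthetic electron transport, the ATP synthase and carbon fixation, 5 were tested, and 2 were called higher and 2 lower with TMM and 2 higher and 0 lower by library totals (edgeR). The share called higher was thus near the 42.3% of all genes with TMM and under the 70.2% by library totals, and both genes called higher, FD1 and PDE334, had entered through paps1-3 only. At an unadjusted p under 0.05, 0 were lower by library totals, and DESeq2 called 2 higher and 2 lower. FD1, a ferredoxin, had 45, 38 and 24 counts in paps1-3 and 0 in every wild-type library, which makes it at least 12.7-fold higher by library totals and at least 5.34-fold higher with TMM, taking 3 counts per wild-type library as the floor. PDE334, subunit b' of the plastid ATP synthase, had 41, 52 and 32 in paps1-3, against 6, 6 and 6 in wild type, and its direction too was set in large part by the filter. RBCS3B, a small subunit of Rubisco, had 124, 152 and 45 in paps1-3, against 123, 124 and 132 in wild type. It was lower with TMM (-1.48 ± 0.23) and not called by library totals (-0.24), and its counts are uncertain because RBCS genes have near-identical copies.

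Of 20 nuclear genes listed for plastid transcription, 12 were tested, and 9 were called higher and 0 lower with TMM, 11 and 0 by library totals (edgeR), beside 42.3% and 70.2% of all genes called higher. Of the 9, 8 had entered through paps1-3 only, so that their direction was set in large part by the filter. The 3 that were above the filter in each genotype were SIG5, which was called higher with TMM, and SIG3 and SIG6, which were not. PTAC3 reached the cutoff in all 3 libraries of neither genotype and was not called (adjusted p = 0.260 by edgeR). At an unadjusted p under 0.05 edgeR gave 1 lower with TMM, and DESeq2 called 6 higher and 0 lower. SIG5, a sigma factor for the plastid-encoded polymerase that responds to light and stress, had 342, 335 and 172 counts in paps1-3, against 11, 11 and 20 in wild type (3.15 ± 0.28, adjusted p = 5.19e-10 by edgeR). It had the same size of change without paps1-3 A (3.18).

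PTAC6 and PTAC12 are proteins that bind the plastid-encoded polymerase. PTAC6 had 37, 23 and 18 counts in paps1-3 and 0 in every wild-type library, at least 9.33-fold higher by library totals and at least 3.91-fold with TMM. PTAC12 had 35, 37 and 20 in paps1-3, against 3, 0 and 0 in wild type. Both entered through paps1-3 only. SIG6 and SIG3, 2 more sigma factors and the genes with most counts in the list, were not called with TMM (-0.10 and -0.44) and were higher by library totals (1.14 and 0.80). Without paps1-3 A, 4 of the list were called higher with TMM, beside 5651 of all 14029 genes tested. They were SIG5, PTAC12, PTAC6 and MURE, a plastid protein related to a bacterial cell-wall ligase.

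Of 9 nuclear genes for plastid RNA turnover and RNA binding, 4 were tested, with 2 called higher and 0 lower with TMM and 4 and 0 by library totals (edgeR), beside 42.3% and 70.2% of all genes called higher on those scales. Of the 3 above the filter in each genotype, PNP, RNR1 and CSP41A, 1 was called higher with TMM and 3 by library totals. At an unadjusted p under 0.05, 0 were lower on either scale, and DESeq2 called 2 higher and 0 lower. PNP, the plastid polynucleotide phosphorylase that degrades RNA and can also add tails to it, had 160, 186 and 63 counts in paps1-3, against 31, 16 and 20 in wild type (1.36 ± 0.32, adjusted p = 0.000563 by edgeR). CP29, an RNA-binding protein of the chloroplast, had 32, 31 and 17 in paps1-3, against 0, 1 and 0 in wild type, and it entered through paps1-3 only. RNR1, a plastid exoribonuclease, had 476, 506 and 265 in paps1-3, against 206, 188 and 256 in wild type, and was not called with TMM (-0.23 ± 0.17) but was by library totals (1.02).

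**Figure D5:**
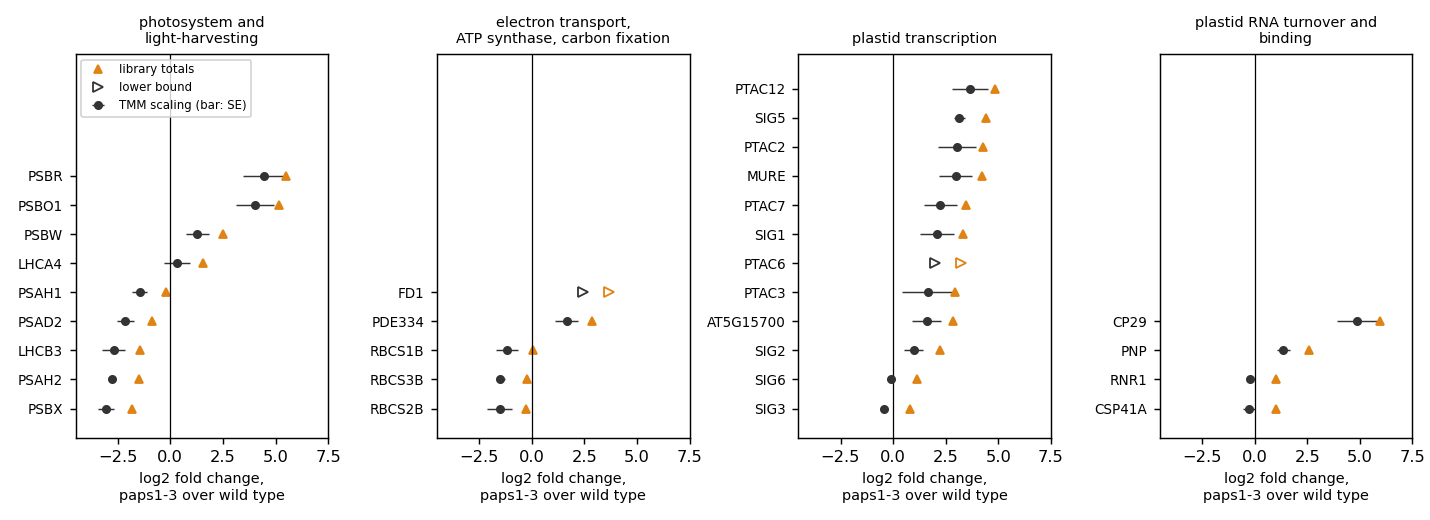
Log2 fold change, paps1-3 over wild type, of the tested nuclear genes in 4 lists of plastid function, with TMM scaling (dots, bars are SE) and by library totals (filled triangles); open triangles are lower bounds for the genes with 0 counts in every wild-type library. PSAD2, PSAH1, PSAH2 and PSBX lie below 0 on both scales, and of the transcription genes above the filter in each genotype SIG5 lies above 0 while SIG3 and SIG6 change sign with the scaling.

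Markers of other tissues were read in the same libraries. All marker sums are CPM by library totals, and sums with TMM scaling were not computed. The 23 green-tissue markers (light-harvesting proteins, Rubisco small subunits and Rubisco activase) summed to 8.42, 8.11 and 5.54 CPM in paps1-3, against 6.33, 6.5 and 5.63 in wild type, with overlapping groups (exact p = 0.4). The 5 of them that were tested, LHCB3, LHCA4 and 3 RBCS genes whose counts are uncertain, summed to 5.10, 5.27 and 3.47 in paps1-3, against 5.77, 5.62 and 4.99 in wild type (exact p = 0.3). With TMM scaling edgeR called LHCB3, RBCS2B and RBCS3B lower and LHCA4 and RBCS1B in neither direction, beside 29.9% of all genes called lower. The 18 that were not tested summed to 3.32, 2.84 and 2.06 in paps1-3, against 0.564, 0.885 and 0.637 in wild type, with no overlap (exact p = 0.1), a split made after the values were seen. Among the 18, RBCS1A had 25, 12 and 4 counts in paps1-3, against 0 in every wild-type library. Of the 23, 2 were at 0 in every library and 8 were at 0 in every wild-type library. The 9 markers of tapetum and anther wall summed to 8.58, 2.36 and 1.81 in paps1-3, against 1.88, 2.2 and 1.78 in wild type (exact p = 0.3), with AT5G07230, listed as the tapetum marker A9, at 0 in all 6 libraries. The high value of paps1-3 A came from GRP17, a pollen coat protein made in the tapetum, with 179, 21 and 5 counts in paps1-3 and 3, 1 and 4 in wild type. Library paps1-3 A also had the highest chloroplast share. The part of tapetum or green-tissue RNA in the chloroplast share of any library was not tested.

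Markers of pollen itself were read as well. The 10 markers of the vegetative cell summed by library totals to 25507, 27124 and 25256 CPM in paps1-3, against 34529, 32355 and 32698 in wild type (exact p = 0.1). Single markers went both ways. By library totals edgeR called 3 higher (PPME1, CNGC18 and ANX1) and 6 lower, beside 70.2% and 9.72% of all genes. With TMM it called 2 higher and 7 lower, beside 42.3% and 29.9%. VGD1, the marker with most counts, was not called by library totals (-0.11). The 4 sperm cell markers summed by library totals to 43.0, 53.4 and 38.97 in paps1-3, against 43.9, 52.2 and 43.6 in wild type, with overlapping groups (exact p = 0.8). The scale mattered here: edgeR called all 3 tested (MGH3, HAP2 and DUO1) lower with TMM and 0 in either direction by library totals. Over all genes 29.9% were called lower with TMM and 9.72% by library totals. GEX2 of that list had 3, 0 and 0 counts in paps1-3, against 1, 1 and 0 in wild type, and was not tested.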

How the data were processed

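Per the submitters' processing notes, the authors aligned reads with TopHat2 and counted them with HTSeq on the TAIR10 build; versions, options and gene annotation: not given in the sources used here. The deposited values are raw counts per gene, 33602 genes in each of 6 libraries, followed by categories that name no gene. They count toward neither library sizes nor tests. Reads without a feature were 1.18% to 1.88% of all lines, ambiguous reads 2.24% to 2.64% and reads with several positions 5.30% to 11.6%. The Ovation kit named in the labels does not mark strand, so overlapping and antisense genes are uncertain. No pair of libraries within a genotype was the same by a chi-square test of their counts.

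edgeR 4.0.16 in R 4.3.3 (quasi-likelihood test, robust, genotype as the only term) was fitted to all genes that passed filterByExpr. That filter took a minimum of 10 counts, a total of at least 15 and a cutoff of 0.288 CPM. Scaling was by TMM, with Benjamini-Hochberg adjustment over 14273 genes. The fit was tested on simulated data with few changed genes, as many raised as lowered, so that test could not check the TMM assumption. Library totals, RLE factors, factors without organelle genes, chloroplast totals, no filter, a filter of 1 CPM in 3 libraries, library letter as a term, leaving out each library and DESeq2 1.42.0 were alternatives. Sums and shares were compared by exact permutation in scipy 1.17.1. Numbers of members detected at equal depth are expected values under sampling to the smallest library.

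Members and gene lists were chosen with earlier results of these data known. Of the chloroplast identifiers, 0 of 133 matched the RefSeq gene table of TAIR10.1 and 6 were named in its notes, so a planned comparison by gene role was replaced by the shares of the 3 leading members. Members named are the 5 above the filter in wild type, the 6 with a product, the 3 leading shares, and others picked by value. In each nuclear list up to 3 called genes with the smallest p are named, and others were picked by value. Of 109 nuclear list genes, 100 had the listed symbol in RefSeq, and the rest carry the RefSeq symbol or identifier. The floors of 3 counts cover counting error only.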

Additional observations from a re-analysis of the deposited data

Results flagged for a closer look

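Reads that aligned at several positions, which enter no gene count, made up 10.01%, 7.90% and 11.6% of all lines in paps1-3 libraries A, B and C, against 6.14%, 5.30% and 5.32% in the wild-type libraries. The mean was 9.84% ± 1.87 in paps1-3 and 5.59% ± 0.481 in wild type (SD, n = 3 each, exact two-sided permutation p = 0.1, the smallest that 3 against 3 allows). It was singled out because it is a signal outside the gene counts that was above the wild-type level. The files do not say which genes or genome those reads come from, and the part of chloroplast genes with near-identical copies in them was not tested.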

How the results depend on the processing

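Against 36 chloroplast genes called higher and 0 lower, scaling to chloroplast totals gave 17 and 3 (12 and 1 without paps1-3 A as well), and a filter of 1 CPM in 3 libraries gave 22 of 24 higher; library totals gave 44, RLE factors 36, factors without organelle genes 36, DESeq2 33 and no filter 33, and leaving out a library gave 30 to 40. With library letter as a replicate block, 37 were higher and 0 lower, beside 6116 and 4426 of all 14273 genes. Over all genes, the 1 CPM filter gave 4269 of 10100 higher, RLE factors 5995 of 14273 and factors without organelle genes 6139 of 14273. DESeq2 gave 5688 of 14273 and no filter 6970 of 31633. Leaving out a library gave 5636 to 6426 higher, with 14029 to 16629 genes tested. The letters were not taken as pairs: deviations correlated at 0.23 (A), 0.10 (B) and 0.08 (C), each library best with its own letter, a hint from the data only. Scaling to chloroplast totals turned the sign for ATCG00040 (-0.086), ATCG00500 (-1.16), ATCG00510 (-0.86), ATCG00670 (-0.80) and ATCG00660 (-0.70), as did leaving out wild-type B for ATCG00500 (range -0.087 to 0.31). Without ATCG00500 in the total, the share of ATCG00480 differed by -3.59 percentage points (3.06 with it) and that of ATCG00670 by -15.5 (-6.92 with it).

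Among nuclear lists, 3 of 9 photosystem genes tested were lower by library totals (5 with TMM), beside 9.72% of all genes (29.9% with TMM). For electron transport, 6 of 18 tested were higher without a filter (2 of 5 with it), beside 6970 of 31633 over all genes. With a library left out, 2 to 5 were higher, with 4 to 8 tested. In that list 0 of 5 were lower by library totals, 1 of 18 without a filter, 1 with the replicate block and 1 in every fit with a library left out (2 with all). Over all genes 4294 of 31633 were lower without a filter and 4073 to 4287 with a library left out. For plastid transcription, 4 to 9 were higher with a library left out, with 12 to 14 tested. In that list 1 of 20 was lower without a filter, 1 of 12 with the block and 0 to 1 with a library left out. For RNA turnover, 4 of 4 tested were higher by library totals (2 with TMM), beside 70.2% of all genes (42.3% with TMM). The call of ATCG00670 was lost with no filter (0.46, adjusted p = 0.0700 by edgeR). Shares without ribosomal and transfer RNA genes were not run, since identifiers could not be assigned to those roles. Low wild-type counts, 702 to 1154 chloroplast counts per library, limit every fold change. The cause of each shift was not tested.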
